A study of Mus musculus with 6 samples.

Results

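The ADAM11 family of mammals consists of 3 receptor genes, Adam11, Adam22 and Adam23, and its secreted ligands are encoded by 4 LGI genes, Lgi1 to Lgi4. These 7 genes were picked by symbol, 7 of the 52636 genes in the table, and they were chosen with the lower level of Adam11 after IDPN already known. They were followed in RNA-seq of the vestibular sensory epithelium, the tissue of the inner ear that holds the sensory hair cells (HCs) for head acceleration. Control animals were 3 male 129S1/SvImJ mice on plain drinking water, aged 2 to 4 months per the study's methods. IDPN animals were 3 male mice of that strain and age range that drank water with 30 mM 3,3'-iminodipropionitrile, a nitrile toxic to HCs, for 8 weeks and were sampled on the last day of exposure. Each library held 2 utricles and 6 cristae of 1 animal, so it is a mixture of HCs, supporting cells, nerve endings and adjoining tissue, and fewer cells of a type and less RNA per cell cannot be told apart in it.

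ADAM proteins are membrane proteins with a metalloprotease and a disintegrin domain. The proteins of Adam11, Adam22 and Adam23 have lost the zinc-binding residues needed for proteolysis, and they act as cell surface receptors for LGI proteins, which are secreted proteins with leucine-rich repeats and EPTP repeats. In the brain, LGI1 bound to ADAM22 and ADAM23 links the pre- and postsynaptic membranes, ADAM22 holds scaffold proteins of the PSD-95 family through its tail, and loss of LGI1 causes epilepsy. ADAM11 is needed for the clustering of Kv1 potassium channels at basket cell terminals of the cerebellum, and LGI4 from Schwann cells acts through ADAM22 on myelination of peripheral nerve.

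Total estimated counts per library lay between 40474847 and 43566332. Control and IDPN animals carry title codes with different stems, and IDPN 1 has another stem than IDPN 2 and 3. Between the groups, what a stem stands for cannot be told apart from treatment. Of the members, 6 of 7 were abundant enough to be tested in the fit across all genes, and Lgi2 was not. The fit was a DESeq2 Wald test, in which a gene was called at a Benjamini-Hochberg adjusted p (Padj) under 0.05 and a fold change above 1.5. It called 2 of the 6, both lower in IDPN, and 5.75% of 17650 genes in either direction, 3.42% as lower and 2.32% as higher. edgeR also called those 2, and 3.21% of all its genes (2.19% lower, 1.02% higher). With total-count scaling 1 member was called, lower, and 4.92% of all genes (1.28% lower, 3.64% higher). Control and IDPN ranges were separate for 3 of the 6, with 2 lower and 1 higher in IDPN, and for 22.5% of all genes tested (11.4% lower, 11.1% higher). The members were chosen on this contrast, so their differences are given here as a description without p-values.

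Adam11 (ENSMUSG00000020926.16) lies on chromosome 11 from 102761439 to 102780262 on the plus strand of GRCm38, and no other annotated gene shares its exons. It was by far the most abundant member. Its normalised counts, which are estimated counts divided by a size factor for each library, were 4699.7, 4026 and 3994 in the Control libraries, against 1579, 1146 and 858 in IDPN 1, 2 and 3. The lowest Control library was far above the highest IDPN library. The means were 4239.8 ± 399 and 1194 ± 363 (SD, n = 3 each), so IDPN animals had 28.2% of the Control level. The log2-Fold_Change was −1.83 (SE 0.21), and it lay between −2.08 and −1.64 with each library left out in turn.

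Adam22 (ENSMUSG00000040537.17), the receptor with the PDZ-binding tail, lies on chromosome 5 from 8072352 to 8368160 on the minus strand. Its normalised counts were 661, 712 and 783 in Control and 473, 329 and 370.5 in IDPN. All IDPN libraries were below all Control libraries, with IDPN 1 closest to them. The mean was 719 ± 61.2 in Control against 391 ± 73.7 in IDPN (SD, n = 3 each). This was a log2-Fold_Change of −0.88 (SE 0.20). With size factors proportional to total counts, which moved the median of all expressed genes from 0.013 to 0.26, Adam22 stood at −0.62 and was not called, whereas Adam11 stood at −1.55 and was called.

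Adam23 (ENSMUSG00000025964.15), on chromosome 1 from 63445891 to 63596276 on the plus strand, went the other way at a far lower level. Only 30, 18 and 27 estimated counts fell on it in Control and 60, 62 and 60 in IDPN. Normalised to library size these were 36.4, 20.8 and 24.0 in Control and 49.7, 62.2 and 56.0 in IDPN, so every IDPN library was above every Control library. The mean of 56.0 ± 6.30 in IDPN against 27.1 ± 8.24 in Control (SD, n = 3 each) gave a log2-Fold_Change of 1.05 (SE 0.45), which was not called.

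**Figure D1:**
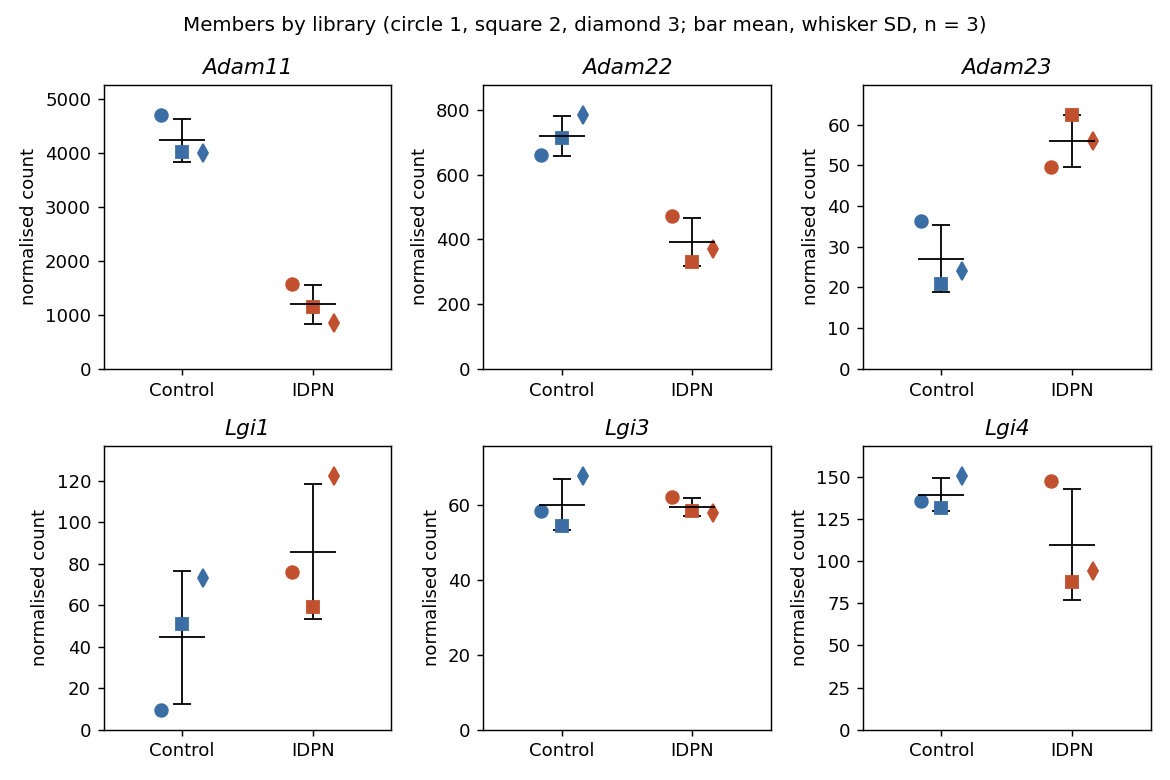
Normalised count (vertical axis, from 0) of 6 members in each library, with Control in blue, IDPN in orange, the bar at the mean and the whisker at the SD (n = 3). Adam11 and Adam22 sit lower in all 3 IDPN libraries and Adam23 higher, while the groups overlap for Lgi1, Lgi3 and Lgi4.

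The ligands were all sparse. Lgi1 (ENSMUSG00000067242.11), the epilepsy-linked ligand, lies on chromosome 19 from 38264536 to 38312214. Its normalised counts were 9.70, 50.8 and 73.0 in Control and 76.1, 59.2 and 122 in IDPN. Control 1 was far below the other libraries, and Control 3 was above IDPN 2, so the groups overlapped. The log2-Fold_Change was 0.94 (SE 0.55), and it was 0.46 without Control 1 and 1.5 without Control 3. It was called in none of the fits run. The antisense gene Gm42723 shares 532 bases (4.69%) of its exon sequence, and the library type keeps no strand.

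Lgi3 (ENSMUSG00000033595.6, chromosome 14, 70530685 to 70538324), a ligand of axonal and synaptic complexes in the brain, was the steadiest member. It had 58.2, 54.2 and 67.6 normalised counts in Control and 62.1, 58.2 and 57.9 in IDPN. The log2-Fold_Change of −0.02 (SE 0.36) had a 95% interval from −0.73 to 0.69, so a change of either sign within that interval is compatible with these values. Its sign turned under total-count scaling (0.22) and without Control 3 (0.080).

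Lgi4 (ENSMUSG00000036560.14, chromosome 7, 31059342 to 31070935), the Schwann cell ligand, had 136, 132 and 150.4 normalised counts in Control and 147, 87.4 and 94.3 in IDPN. IDPN 1 lay within the Control range and the other two IDPN libraries below it. The log2-Fold_Change was −0.34 (SE 0.30), with a 95% interval from −0.94 to 0.25. The exons of Fxyd3, a gene on the opposite strand that encodes a regulator of the sodium pump, cover 2059 bases (44.9%) of the Lgi4 exons, so their reads cannot be told apart without strand. Fxyd3 itself was 1397 ± 138 in Control against 840.3 ± 112 in IDPN (SD, n = 3 each), and it was called as lower (log2-Fold_Change −0.73, SE 0.18, DESeq2 Padj = 0.00154). That call was lost under total-count scaling (−0.48, DESeq2 Padj = 0.196) and when testing against a fold change of 1.5.

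Lgi2 (ENSMUSG00000039252.11, chromosome 5, 52533517 to 52566462) had 1 estimated count in IDPN 1 and 0 in the other 5 libraries. A count of 0 allows up to 3 counts in a library, which is 2.67 to 3.64 normalised counts in those 5, so no fold change is given.

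Start-site sequence was on hand for 4 of the members, from RefSeq on GRCm38.p6. The 250 bases before the start of Adam22 (chr5:8368161-8368410, minus strand) and of Adam23 (chr1:63445641-63445890, plus strand) are shown because these receptors differed in opposite directions. Capitals mark the letters CANNTG, the E-box bound by basic helix-loop-helix factors, read on both strands.
Adam22: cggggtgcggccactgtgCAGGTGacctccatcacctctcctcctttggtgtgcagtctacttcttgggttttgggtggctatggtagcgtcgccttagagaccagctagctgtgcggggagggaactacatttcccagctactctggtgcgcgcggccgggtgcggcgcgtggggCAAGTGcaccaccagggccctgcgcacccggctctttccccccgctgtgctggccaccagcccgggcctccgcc
Adam23: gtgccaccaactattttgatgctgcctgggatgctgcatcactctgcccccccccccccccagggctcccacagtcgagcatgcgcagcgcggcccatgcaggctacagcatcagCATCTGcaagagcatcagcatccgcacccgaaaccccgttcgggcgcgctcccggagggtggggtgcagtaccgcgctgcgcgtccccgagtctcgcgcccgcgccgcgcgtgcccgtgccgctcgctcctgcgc
Adam22 held 2 such matches and Adam23 held 1, and 66.2% of the 32851 RefSeq start regions of this length hold at least 1. Neither region held GGGCGG, which 32.7% of all regions hold, or TATAAA, which 12.4% hold, on either strand, and none of these motifs overlap in them. Both were rich in CpG, with 17 CpG in Adam22 and 27 in Adam23 against a median of 6. These counts describe the letters of the reference and were not linked to the expression values.

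Levels of different genes were compared in TPM, a length-corrected transcript level computed from the counts and the summed exon length of each gene. In Control the order was Adam11 at 35.6 ± 5.29 TPM, Adam22 at 2.43 ± 0.69, Lgi4 at 1.47 ± 0.40, Lgi3 at 0.75 ± 0.23, Lgi1 at 0.20 ± 0.17 and Adam23 at 0.071 ± 0.018 (SD, n = 3 each). Adam22 and Lgi4 overlapped in range, as did Lgi1 and Adam23, and the other neighbours did not. Among protein-coding genes, Adam11 stood at percentile 91.5 of mean Control TPM and Adam22 at percentile 58.4.

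In IDPN Adam11 was still the highest member, at 13.1 ± 5.53 TPM and percentile 78.9. Adam22 (1.70 ± 0.55), Lgi4 (1.5 ± 0.65) and Lgi3 (0.94 ± 0.16) followed, and each of these overlapped its neighbour in range. Lgi1 (0.47 ± 0.19) and Adam23 (0.189 ± 0.0037) came next without overlap (SD, n = 3 each). The exon length used affects this order. With the mean annotated transcript length instead, Lgi1 in IDPN came to 1.07 TPM and Lgi3 to 0.80, with overlapping ranges. TPM is scaled to each library's total, and on it Adam22 ran from 1.91 to 3.21 in Control and from 1.23 to 2.3 in IDPN, so its groups overlapped, unlike on the normalised count scale.

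**Figure D2:**
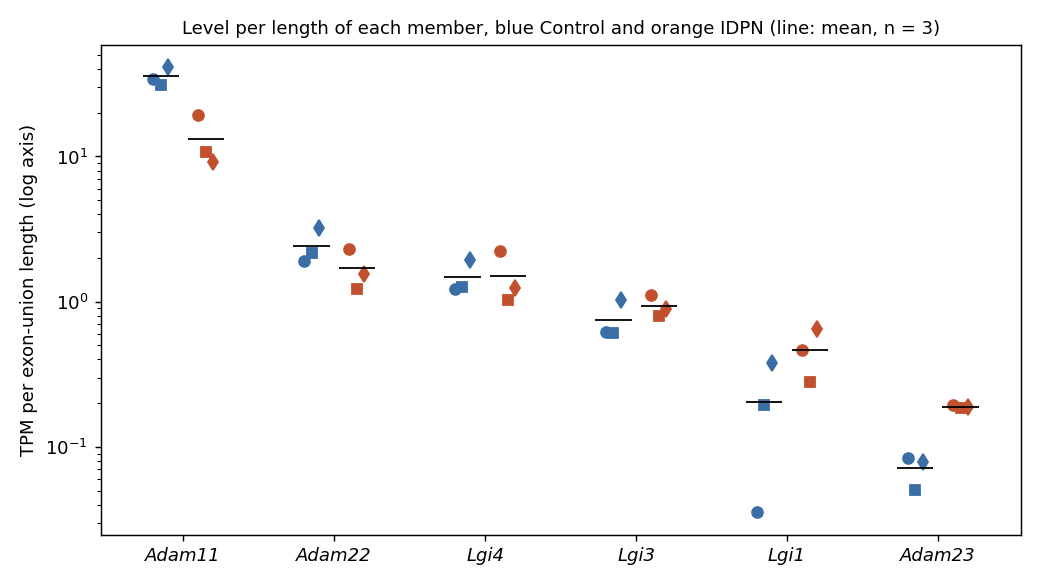
TPM on a log axis for 6 members, ordered by their Control mean, with Control in blue, IDPN in orange, 1 symbol per library and a line at the mean (n = 3). Adam11 lies above all other members in both groups, at 35.6 TPM in Control and 13.1 in IDPN, and Adam23 is the lowest by mean.

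Shares of the receptor pool restate the same receptor counts in a form that does not depend on scaling between libraries. The family was chosen with the lower level of Adam11 known, so a lower Adam11 share adds no further result. Adam11 made up 94.5%, 93.3% and 92.6% of the summed receptor TPM in Control and 88.6%, 88.4% and 83.9% in IDPN. The Adam22 share was 6.32% ± 0.98 in Control and 11.6% ± 2.36 in IDPN, and the Adam23 share 0.187% ± 0.041 and 1.38% ± 0.44 (SD, n = 3 each). No IDPN library overlapped a Control library for any of these shares, and no like measure over all genes was computed. A lower Adam11 level by itself raises the shares of Adam22 and Adam23, and Adam22 was lower in its own normalised counts. Adam11 transcripts outnumbered those of Adam22 by 15.1 ± 2.63 to 1 in Control and by 7.71 ± 1.61 to 1 in IDPN. This ratio depends on the length used, its log2 value in Control being 3.90 with summed exon length, 3.34 with mean transcript length and 2.56 without division by length, and in IDPN 2.92, 2.36 and 1.58. Among the ligands, Lgi4 made up the largest mean share of the summed TPM in both groups, 61.4% ± 3.65 in Control against 50.6% ± 7.21 in IDPN (SD, n = 3 each), with the limit that it shares exon bases with Fxyd3.

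Genes whose products act with LGI and ADAM22-type receptors were taken from lists chosen with earlier results of these data known. The table held 44 such genes, 36 of them abundant enough to be tested. Of these, 4 were called as lower and 1 as higher in IDPN (13.9%, against 5.75% of all genes tested). Their median log2-Fold_Change was −0.14, against 0.015 over all genes tested. With edgeR 3 partner genes were called, all lower, and 3.21% of all its genes. Because of how the lists were chosen, the share called is only descriptive.

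Of the 7 Kv1 channel genes on the list, all tested, 1 was called. It was Kcnab1, a beta subunit that binds Kv1 channels, with 5475, 3991 and 3905 normalised counts in Control and 732, 544 and 497 in IDPN. All IDPN libraries were far below all Control libraries (log2-Fold_Change −2.91, SE 0.20, DESeq2 Padj = 7.81e-43). Kcnab1 and Adam11 are both in a gene list that the study chose partly on these libraries, so Kcnab1 is not independent evidence of direction. Kcna1, a pore subunit and the most abundant of those not called, stood at −0.43 (SE 0.25, DESeq2 Padj = 0.396).

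Of the 4 AMPA receptor and TARP genes tested, 1 was called. Gria4, an AMPA-type glutamate receptor subunit, fell from 162.5, 141 and 188 normalised counts in Control to 33.9, 39.2 and 29.9 in IDPN (log2-Fold_Change −2.26, SE 0.32, DESeq2 Padj = 6.21e-10). The ranges were wide apart. Cacng4, an auxiliary AMPA receptor subunit, stood at −0.46 (SE 0.20, DESeq2 Padj = 0.185). Cacng2, the TARP that works with LGI1 and ADAM22 in brain, and Cacng8 had no count in any library.

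Among other LGI1 receptors and juxtaparanodal adhesion genes, 1 of 4 tested was called. Cntnap2, whose product CASPR2 holds Kv1 channels beside the node of Ranvier, had 834, 831 and 836 normalised counts in Control and 327, 280.1 and 332 in IDPN. The 3 Control libraries hardly differed, and the fall was clear of both ranges (log2-Fold_Change −1.41, SE 0.18, DESeq2 Padj = 8.55e-13). Epb41l3, a cytoskeletal linker of that site, stood at −0.26 (SE 0.16, DESeq2 Padj = 0.455).

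The scaffold list of Dlg genes had 1 call among 5 gene entries. Dlg2 (ENSMUSG00000052572.16, the other gene with this symbol having a mean of 6.75 normalised counts in Control), which encodes PSD-93, had 349, 289.7 and 439.5 normalised counts in Control and 259, 129.5 and 179 in IDPN (log2-Fold_Change −0.92, SE 0.28, DESeq2 Padj = 0.0229). Its call was lost with edgeR (adjusted p = 0.108), under total-count scaling (DESeq2 Padj = 0.297) and without Control 1 (0.0980), Control 3 (0.129), IDPN 2 (0.150) or IDPN 3 (0.142). Dlg1 stood at 0.19 (SE 0.20, DESeq2 Padj = 0.729), and Dlg4, which encodes PSD-95 itself and was named after its values were seen, had means of only 43.9 and 37.4 normalised counts (log2-Fold_Change −0.24, SE 0.50, DESeq2 Padj = 0.885).

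The 14-3-3 genes, whose products bind the ADAM22 tail, had 1 call among 7. Sfn, the epithelial 14-3-3 sigma, was at 10.9, 13.9 and 15.1 normalised counts in Control and 21.5, 133.5 and 22.4 in IDPN, so IDPN 2 set the estimate (log2-Fold_Change 2.14, DESeq2 Padj = 0.0375). Without IDPN 2 it was 0.72 (DESeq2 Padj = 0.771). It was also not called by edgeR (adjusted p = 0.170), with independent filtering off (DESeq2 Padj = 0.0542) or without Control 1 (DESeq2 Padj = 0.177), Control 2 (0.153) or Control 3 (0.0720). Ywhaz, the most abundant, stood at −0.11 (SE 0.24, DESeq2 Padj = 0.891).

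A chosen list of 9 ADAM genes that keep the zinc-binding motif was set beside the members, and it does not stand for all other ADAM genes. None of the 8 tested was called by DESeq2 or edgeR, and none had an unadjusted p under 0.05 with either tool. Their log2-Fold_Changes ran from −0.90 to 0.25 around a median of −0.0090. Adam15, the most abundant, had 2668 ± 254 normalised counts in Control against 3012 ± 440 in IDPN (SD, n = 3 each, log2-Fold_Change 0.18, SE 0.17, DESeq2 Padj = 0.685). Of the other genes with EPTP repeats, Adgrv1, which encodes a protein of the hair bundle ankle links, stood at −0.074 (SE 0.27, DESeq2 Padj = 0.939), and Tspear was too sparse to be tested.

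**Figure D3:**
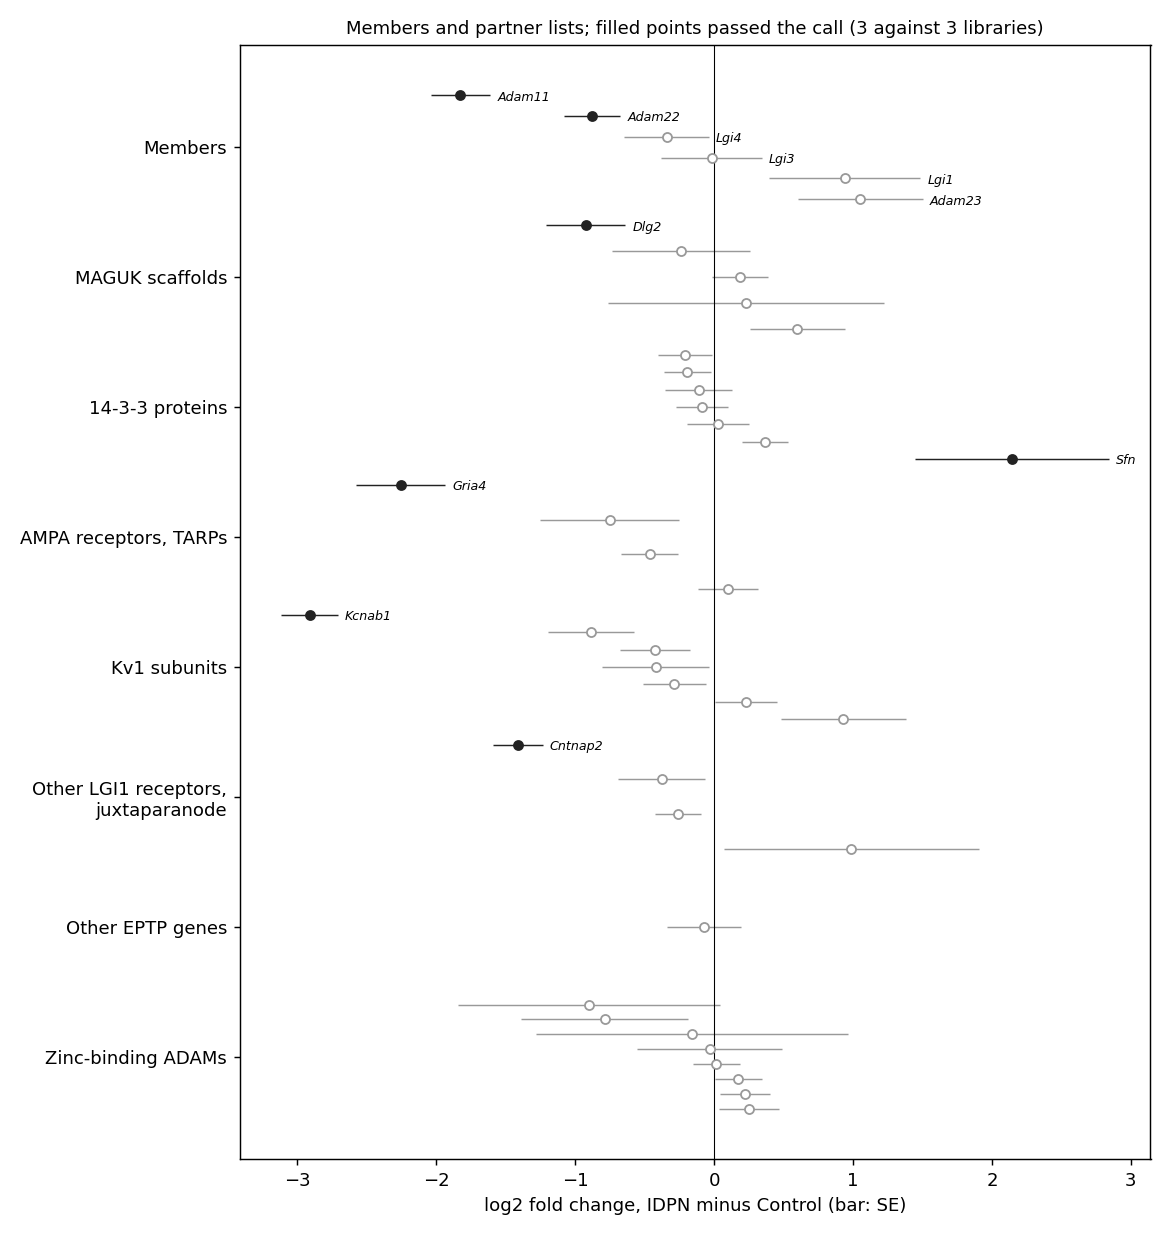
Log2 fold change with its SE (horizontal axis, IDPN minus Control) for 6 members and for the tested genes of each partner list, 3 libraries per group. Filled points passed the call. Adam11 stood at −1.83. Of the 36 partner genes tested, Kcnab1 (−2.91), Gria4 (−2.26), Cntnap2 (−1.41) and Dlg2 (−0.92) were called as lower and Sfn (2.14) as higher, and the median was −0.14. The listed ADAM genes with a zinc-binding motif scatter around 0.

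Cell type markers, also chosen with earlier results of these data known, were measured beside the members. Of the 53 markers tested, 13 were called as lower and 1 as higher (26.4%, against 5.75% of all genes tested). HC markers were present in every library, and 6 of 11 were called as lower in IDPN, with a median log2-Fold_Change of −0.70 and a range from −1.21 to 0.015. Their summed level ran from 29589 to 33502.5 normalised counts in Control and from 21736 to 22065.5 in IDPN. Adam11, picked with its lower level known, stood at −1.83 and so below all 11 HC markers. Per length, Adam11 stood at 1.35 ± 0.17 of the level of Myo6, an HC myosin, in Control and at 0.44 ± 0.13 in IDPN (SD, n = 3 each).

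Type I HCs are enclosed by a calyx-shaped nerve ending. Of the 3 genes listed as their markers, 2 were called as lower. Ocm, which encodes the calcium buffer oncomodulin, had the value closest to Adam11 at −1.98 (SE 0.23, DESeq2 Padj = 4.15e-15). Per the study, oncomodulin can occur in type I and in type II HCs, whereas human data it cites have Ocm and Adam11 selective for type I. The ratio of Adam11 to Ocm was 0.46 ± 0.14 in Control and 0.49 ± 0.18 in IDPN, while that of Adam11 to the potassium channel gene Kcna10 was 0.0729 ± 0.0012 and 0.0420 ± 0.0073 (SD, n = 3 each). Ocm and Kcna10 are in the same list chosen partly on these libraries. The summed type I markers, of which Spp1 makes up nearly all, ran from 780527 to 1035884 in Control and from 569970.4 to 775546 in IDPN, without overlap. Spp1 itself overlapped, with 758872 in Control 3 and 762993 in IDPN 2. It was not called (log2-Fold_Change −0.53, SE 0.18, DESeq2 Padj = 0.0502). Type II HC markers had 1 of 3 called as lower, with sums of 4315 to 5402 and 4183 to 4551. The gene called was Calb2 (log2-Fold_Change −0.90, SE 0.22, DESeq2 Padj = 0.00125). Anxa4, which was not called (−0.068), makes up most of these sums.

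Of the neuronal markers, 3 of 7 tested were called as lower, with a median of −0.59 and sums from 4987 to 5221 in Control and from 3165 to 3448 in IDPN. The 3 called, Nefl, Nefm and Snap25, make up nearly all of these sums. The other neuronal markers were sparse, so the sums say little about them. Prph went the other way, with means of 12.7 normalised counts in Control and 36.7 in IDPN and no overlap. It was not called (log2-Fold_Change 1.51, SE 0.63, DESeq2 Padj = 0.148). Schwann cell markers had 1 of 8 called, as higher, with a median of −0.17 and sums from 104745 to 230171.9 and from 97847 to 115136. Supporting cell markers had 1 of 7 called, as lower, with a median of −0.50 and sums from 349302 to 497289 and from 247469 to 303934. Macrophage markers (median 0.30, sums 1948 to 2597 and 2147 to 3215) and stroma markers (median 0.34, sums 20441 to 39051 and 35993 to 38675) had no gene called among 8 and 6 by DESeq2 or edgeR. Of these, 2 macrophage markers and 1 stroma marker had an unadjusted p under 0.05 with DESeq2, and likewise with edgeR. Mbp and Pmp22 make up most of the Schwann cell sums, and Dcn most of the stroma sums. No marker was at 0 in all libraries, and among the neuronal ones Nefh, Tubb3 and Stmn2 were near 0. The part of these markers in the values of Adam11, Adam22 and Adam23 was not tested.

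**Figure D4:**
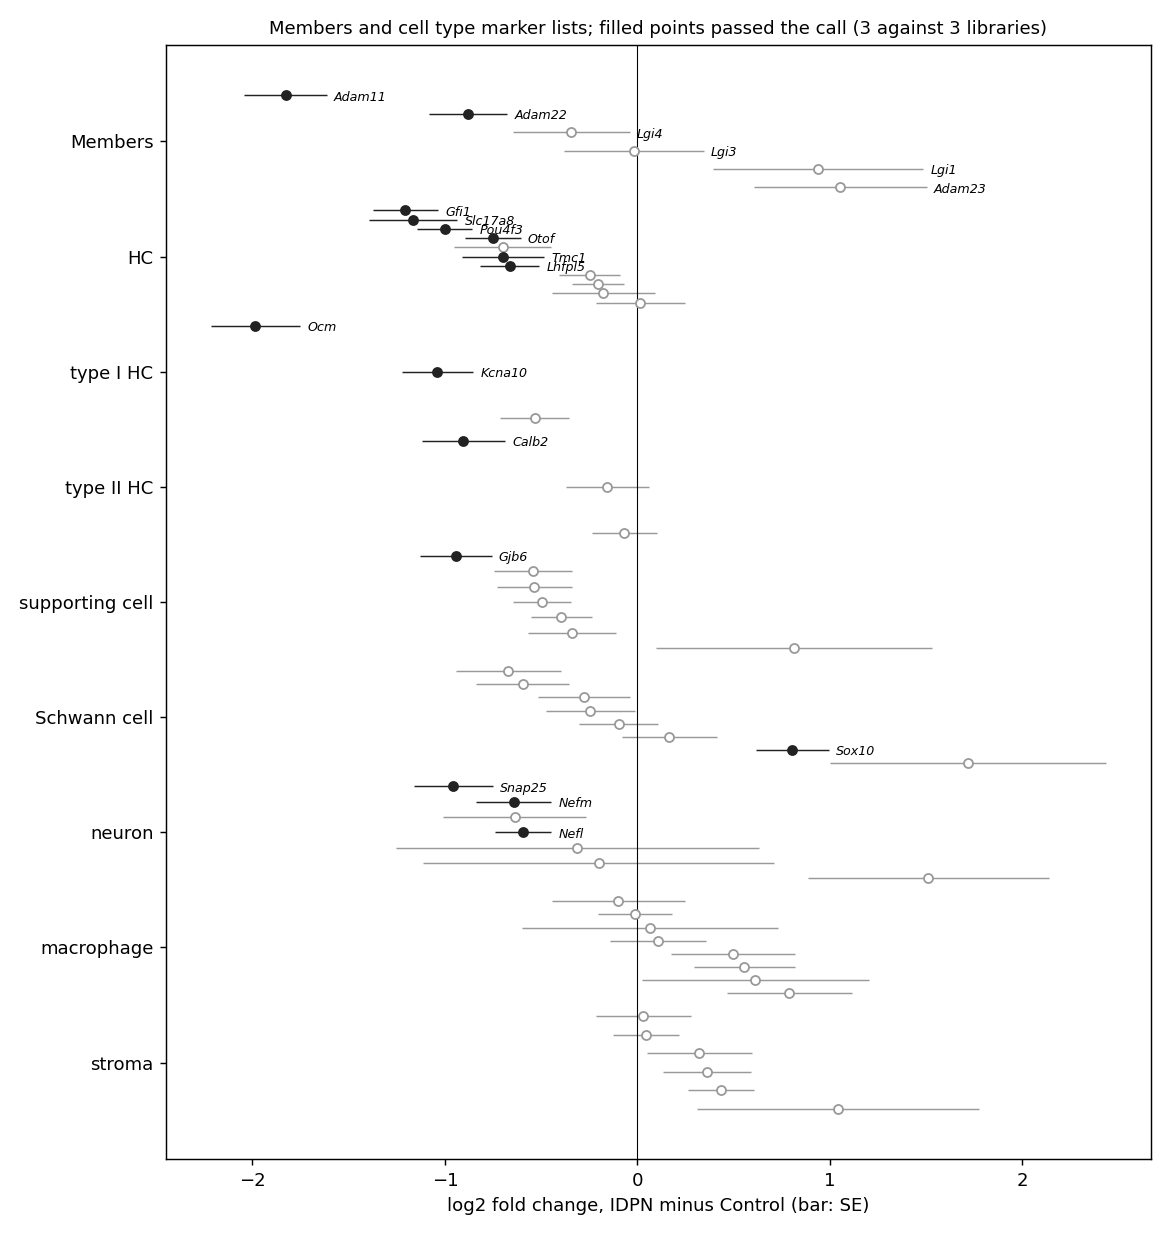
Log2 fold change with its SE (horizontal axis, IDPN minus Control) for 6 members and for the tested genes of 8 cell type marker lists, 3 libraries per group, with filled points for genes that passed the call. Adam11 lies to the left of all HC markers and close to Ocm at −1.98.

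Genes with a pattern most like that of Adam11 were ranked by Pearson's r of log2(normalised count + 1) over the 6 libraries. The ranking covered 11141 other genes with a mean of at least 100, and it left out symbols that are clone or predicted-gene names. The 5 highest were Elmo1, Nek2, Mtap, Dner and Pcdh20, with r from 0.996 to 0.997. Elmo1 encodes a partner in Rac activation, Nek2 a centrosomal kinase, Mtap an enzyme of methionine salvage, Dner a Delta/Notch-like membrane protein and Pcdh20 a protocadherin. Likeness here is of shape and not of size, since Nek2 (−1.70) and Dner (−1.54) had log2-Fold_Changes near that of Adam11, and both are in the study's list, whereas Elmo1 (−1.01), Pcdh20 (−0.71) and Mtap (−0.32) had smaller ones and Mtap was not called (DESeq2 Padj = 0.273). A share of 1.88% of the genes had an r above 0.95. The points share libraries, scaling and treatment groups, so r is only descriptive. Adam22 had an r of 0.947 with Adam11, Lgi4 0.752, Lgi3 0.109, Lgi1 −0.655 and Adam23 −0.861.

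**Figure D5:**
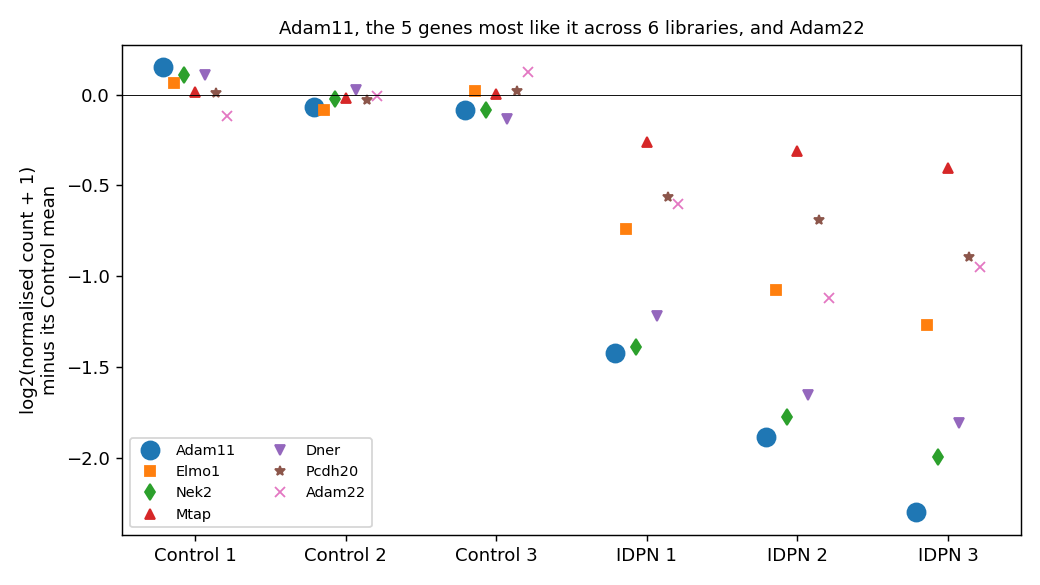
Log2(normalised count + 1) minus its Control mean (vertical axis) in each of the 6 libraries for Adam11 (large circles), the 5 genes most like it and Adam22. All lie near 0 in Control and below it in every IDPN library, with Adam11 the lowest of the 7 and Mtap (log2-Fold_Change −0.32) nearest to 0.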

How the data were processed

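RNA was measured in 6 libraries, 3 Control and 3 IDPN, grouped by the treatment label. The batch label has the same value in all 6. Libraries were made by a SMART-seq2 protocol from 6 to 11 ng of total RNA, with 8 and 12 cycles of amplification and no molecular identifiers, so floors cover counting error only. Per the study's methods, the authors aligned paired reads to GRCm38 with STAR 2.5.3a and computed estimated counts per gene with RSEM 2.3.0 on GENCODE M15, and the deposited expected counts are whole numbers with no normalization or filter. RSEM divides reads that match several genes.

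Differences were tested with DESeq2 1.42.0 (R 4.3.3, median-of-ratios size factors, no covariate, Padj under 0.05 and fold change above 1.5). The edgeR 4.0.16 quasi-likelihood test was an alternative, beside other scalings, filters and leaving out each library. Both were tested on simulated data, where a larger share of the DESeq2 calls than of the edgeR calls were false, in both above the share set by the threshold. Coordinates and exon lengths came from GENCODE M21 on GRCm38, with a length for 52489 genes (99.7%). Libraries of a group were not duplicates (chi-square per degree of freedom at least 39.5 between any pair). Intervals of log2-Fold_Changes, from the DESeq2 SE, and p-values rest on the spread between 3 animals per group, which both tools estimate partly from other genes.

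The members, gene lists and markers were chosen with earlier results of these data known. Named genes were all members, called partner genes, the most abundant uncalled gene of each partner list, and the 5 genes most like Adam11. Dlg4 and, as context, Fxyd3 (exon overlap), Cacng2, Cacng8 and Tspear (not tested) and single markers were named outside this rule, after their values were seen. No set test was run.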

Additional observations from a re-analysis of the deposited data

How the results depend on the processing

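Adam11 was called lower under all 13 alternatives, and Adam22 under 11 of them. Under total-count scaling, and likewise when testing against a fold change of 1.5, 1 of the 6 tested members was called in place of 2. All genes called numbered 1014 in the main analysis, 523 with edgeR, 145 against a fold change of 1.5, and 679 to 1331 without 1 library. Under total-count scaling 26% of the calls were lower, compared with 59.6%. Partner calls went from 5 to 3 with edgeR and 3 against a fold change of 1.5, and lay between 3 (without IDPN 2) and 5 without 1 library. Marker calls went from 14 to 8 under total-count scaling and 2 against a fold change of 1.5, and lay between 11 and 19 without 1 library, alternatives that were added after seeing the data. The Adam11 share of the receptor total was 90.7% in Control and 81.9% in IDPN with mean transcript lengths, and 85.0% and 72.2% without division by length. Without 1 library it lay between 93.0% and 93.9% in Control and between 86.2% and 88.5% in IDPN. The log2-Fold_Change of Lgi3 turned positive under total-count scaling (0.22), and without 1 library it lay between −0.090 and 0.080 (without Control 3), with no call. The cause of these shifts was not tested. Depth limited Adam23 and the ligands, with at most 178 estimated counts per library. No paired analysis was possible because the labels give the groups no shared replicate numbers.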
